A study of Mus musculus with 20 samples.

Results

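Hepatocytes do different work depending on where they sit between the portal triad and the central vein of the liver lobule, a division of labour called zonation. Periportal hepatocytes break down amino acids such as glutamine, serine and histidine, whereas a narrow rim of pericentral hepatocytes takes up the remaining ammonia and glutamate and builds glutamine. Wnt signals released by endothelial cells of the central vein, carried inside the hepatocyte by β-catenin, keep the pericentral genes on. Described here are 10 genes of this kind, picked by name: 7 pericentral genes (GLUL, OAT, SLC1A2, RHBG, AXIN2, LGR5 and TBX3) and 3 periportal genes (HAL, SDS and GLS2), out of 60607 human genes and 55335 mouse genes listed. A gene was taken where its name, ignoring case, matched in both the human and the mouse data, and all 10 were found in both.

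The data are RNA-seq of 20 livers, each from 1 mouse, taken on day 7 after an intravenous adenovirus (2000000000 pfu per mouse) and a 4 h fast. Humanized mice are TK-NOG mice, an immunodeficient strain with a thymidine kinase transgene under the albumin promoter, which lets ganciclovir clear host hepatocytes before human hepatocytes are transplanted. They received either an shRNA virus against human HuR (HuR KD, 4 livers) or a control virus (LacZ, 4 livers), and only human genes are listed for them. Male C57BL/6 mice (WT) received an shRNA virus against mouse HuR (6 livers) or the LacZ virus (6 livers). HuR, encoded by ELAVL1, is a protein that binds AU- and U-rich stretches of mRNA, many of them in 3′ untranslated regions (3′ UTRs), and affects mRNA stability. The chimeric livers keep mouse endothelium and remaining mouse hepatocytes, whose RNA is not in the human table. Species cannot be told apart from host strain or from the shRNA, which also differed between the humanized and the WT livers. Read length and annotation differed between the sets too.

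Values are TPM, a transcript level corrected for gene length and library size, and each table was normalized on its own. Mitochondrial ribosomal RNA took 27.16 to 49.1% of TPM in humanized livers and 0% in WT livers, so the scales differ. ELAVL1 itself was at 61.0% of LacZ in humanized and 51.7% in WT HuR KD livers, with no overlap between the groups in either set. Reads per library, recovered from the steps of the TPM, ran from 2670469 to 20302454 in humanized livers and from 12960373 to 44668272 in WT livers, apart from 1423985 in WT LacZ replicate 2. In the humanized set, 2 livers stood apart from the rest, HuR KD replicate 4 and LacZ replicate 2. They correlated with each other more closely than any other pair (Pearson r = 0.97 across genes on the log2 scale, against 0.87 to 0.93 for the other 27 pairs), had the most reads (19891555 and 20302454, against at most 8342241 in the other 6 livers), and carried 49.1% of TPM on mitochondrial ribosomal RNA, against 27.16 to 36.05%. In humanized livers the calls for the 10 genes, and the counts for gene lists, are therefore given with all 8 livers and without these 2, a choice made after seeing the data. Kupffer cell and endothelial markers were scarce among the human genes. The summed TPM of 6 Kupffer cell markers was at most 1.24 and that of 7 endothelial markers at most 0.995 in any humanized liver. Stellate cell markers summed to at most 7.17 TPM and cholangiocyte markers to at most 45.5 TPM. The 5 listed hepatocyte markers summed to 38135 to 87908 TPM. In bulk liver, fewer cells of a kind and less RNA per cell cannot be told apart.

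The 10 genes spanned a wide range of levels, and the order was not the same in both sets. In WT LacZ livers Oat was the highest, with a median of 2030 TPM, followed by Glul at 520 TPM, Sds at 334 TPM, Gls2 at 236 TPM and Hal at 177 TPM. The ranges of Glul and Sds, of Sds and Gls2 and of Gls2 and Hal overlapped. Within single livers, however, Sds was above Gls2 and Gls2 above Hal in every WT LacZ liver. Glul was above Sds in all of them but replicate 5 (494 against 544 TPM). Below them came Slc1a2 at 61.5 TPM and Tbx3 at 12.0 TPM, each clear of its neighbours, and then Axin2 at 4.82, Rhbg at 2.96 and Lgr5 at 1.71 TPM, which overlapped in turn. In humanized LacZ livers GLUL led with a median of 138 TPM, ahead of OAT at 28.7, SLC1A2 at 17.8, TBX3 at 14.8 and RHBG at 11.2 TPM. HAL at 5.71, LGR5 at 4.54, GLS2 at 4.47, SDS at 2.43 and AXIN2 at 1.99 TPM followed, and every neighbour in this order overlapped with the next. In humanized HuR KD livers OAT, at 71.4 TPM, stood above GLUL, at 59.6 TPM, with overlap between them.

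**Figure D1:**
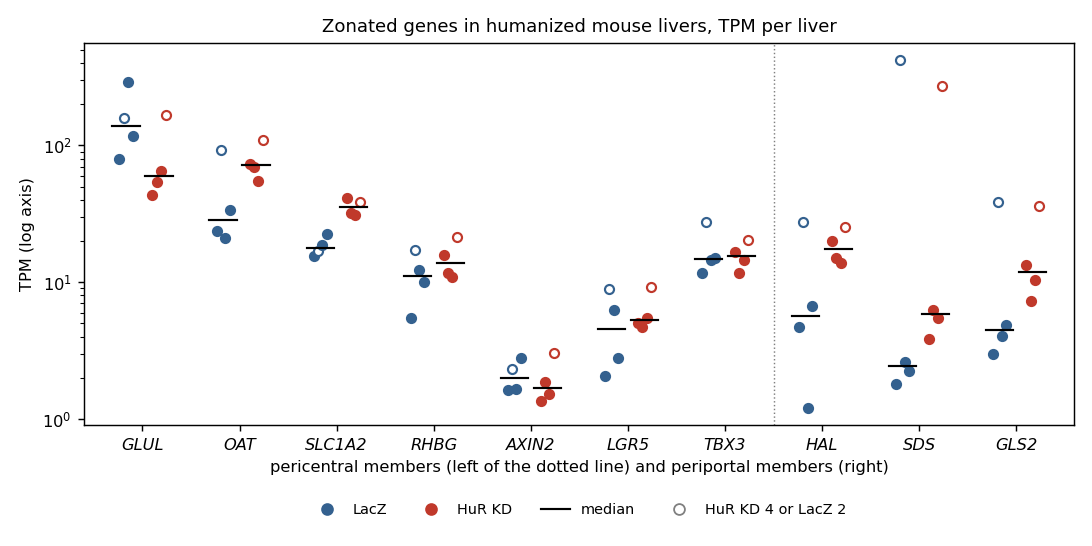
TPM of the 10 zonated genes in each humanized mouse liver on a log axis, LacZ in blue and HuR KD in red, with a black line at the median of each group and open circles for HuR KD replicate 4 and LacZ replicate 2. The SLC1A2 groups do not overlap, and the open circles of SDS, at 271 and 421 TPM, lie far above the other 6 livers, at 1.80 to 6.29 TPM.

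The first question was whether HuR KD moved the zonated genes of human hepatocytes. A gene was called at an unadjusted p under 0.05 in limma, the threshold used in the study, on log2(TPM + 1) over all genes with a mean of at least 1 TPM, with the Benjamini-Hochberg adjusted p beside it. In humanized livers 2 of the 10 genes were called, OAT and SLC1A2, both higher, against 11.5% of all 12738 genes tested, and 0 of 10 had an adjusted p under 0.05. Over all genes the calls split into 458 higher and 1003 lower, or 817 higher and 838 lower when the TPM were rescaled by median-of-ratios factors. Without the 2 livers that stood apart, 6 of 10 were called, with GLUL lower and OAT, SLC1A2, HAL, SDS and GLS2 higher, against 15.7% of 12826 genes, and 1 of these, OAT, had an adjusted p under 0.05. RHBG, AXIN2, LGR5 and TBX3 were not called with or without the 2 livers.

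SLC1A2 (ENSG00000110436.13) encodes a transporter that takes up glutamate, and in liver it serves the glutamine-making pericentral cells. Its level was 41.6, 32.3, 31.1 and 38.8 TPM in HuR KD replicates 1 to 4 and 15.6, 16.9, 18.8 and 22.3 TPM in LacZ replicates 1 to 4. All 4 HuR KD livers lay above all 4 LacZ livers, a separation that 7.16% of all genes showed in either direction. The means were 35.9 ± 5.06 and 18.4 ± 2.93 TPM (SD, n = 4 each), a log2 fold change of 0.93 (standard error 0.16, p = 0.000203, adjusted p = 0.0573 from limma, and p = 0.0286 by exact permutation). That is the smallest p that the exact test allows for 4 against 4 livers (two-sided, as are all tests here). The increase was called in each of 18 settings, single livers left out among them, with log2 fold changes of 0.86 to 1.04 and adjusted p-values of 0.0226 to 0.187, and was 0.85 without the 2 livers (adjusted p = 0.0827).

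OAT (ENSG00000065154.11) encodes ornithine aminotransferase, which turns ornithine into a precursor of glutamate. It was at 73.2, 69.5, 55.2 and 110 TPM with HuR KD and at 23.7, 93.2, 21.1 and 33.7 TPM with LacZ, so that LacZ replicate 2 was the only LacZ liver within the HuR KD range. The log2 fold change was 1.05 (standard error 0.43, p = 0.0363, adjusted p = 0.394 from limma, p = 0.114 by exact permutation). Leaving out any 1 of HuR KD replicates 1, 2 and 4 or LacZ replicates 1, 3 and 4 ended the call, with the lowest value, 0.81, without LacZ replicate 3. Without the 2 livers the means were 66.0 ± 9.53 and 26.1 ± 6.65 TPM (SD, n = 3 each) and no longer overlapped, as was the case for 21.3% of all genes with 3 against 3 livers. The log2 fold change was then 1.32 (standard error 0.21, p = 0.000255, adjusted p = 0.0351 from limma), while the exact test could not go below 0.1.

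GLUL (ENSG00000135821.18), glutamine synthetase, joins ammonia to glutamate and is the classic mark of the pericentral rim. Its TPM were 43.3, 54.4, 64.9 and 166 with HuR KD and 79.4, 158, 290 and 118 with LacZ. Replicates 1 to 3 with HuR KD lay below every LacZ liver, and replicate 4, one of the 2 livers that stood apart, lay among them. With all livers the log2 fold change of −1.01 (standard error 0.47, 95% interval −2.07 to 0.06) missed the threshold (p = 0.0611 in limma, exact p = 0.143). On the same 8 livers, voom on the recovered reads called GLUL lower (−0.96). Without the 2 livers GLUL fell by 1.37 on the log2 scale, from 162 ± 112 to 54.2 ± 10.8 TPM (SD, n = 3 each, p = 0.0137, adjusted p = 0.186 in limma, exact p = 0.1, the smallest possible). Leaving out HuR KD replicate 4 alone gave a called decrease of −1.41, and so did leaving out LacZ replicate 1 alone (−1.29), while the other 6 single omissions gave no call.

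Some markers of bile duct cells were also called lower among the human genes. Of 6 cholangiocyte markers 4 were tested and 2 were called, against 11.5% of all genes: EPCAM (log2 fold change −1.17) and SPP1 (−1.61). KRT7 and SOX9 were not called. Without the 2 livers 3 of 4 were called, all lower (EPCAM −1.64, SPP1 −1.52 and SOX9 −0.66), against 15.7% of all genes. The summed level of the 6 markers ran from 6.02 to 29.4 TPM (median 8.89) with HuR KD and from 12.9 to 45.5 TPM (median 31.4) with LacZ, with overlap, and all 6 were detected in both groups. Of 6 stellate cell markers 2 were tested, and RELN was called lower (−1.19, and −1.20 without the 2 livers), from a mean of 3.29 to 0.83 TPM. PDGFRB was not called (−0.04, and −0.16 without the 2 livers). The summed levels of the 6 stellate cell markers, RELN among them, were 2.73 to 4.85 TPM with HuR KD and 5.27 to 7.17 TPM with LacZ. The part of these cells in the GLUL values was not tested.

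The remaining pericentral genes were RHBG, a carrier of ammonia across the cell membrane, and 3 genes of the Wnt response. RHBG was at 10.8 to 21.3 TPM with HuR KD and 5.47 to 17.3 TPM with LacZ (log2 fold change 0.42, adjusted p = 0.674 in limma). LGR5, the receptor for R-spondins that strengthens Wnt signals, was at 4.73 to 9.17 against 2.07 to 8.89 TPM (0.36, adjusted p = 0.771), and TBX3, a transcription factor gene switched on by β-catenin, at 11.6 to 20.4 against 11.7 to 27.5 TPM (−0.07, adjusted p = 0.952). AXIN2, a brake on β-catenin that is itself a Wnt target, was at 1.35 to 3.04 against 1.62 to 2.81 TPM (−0.09, adjusted p = 0.927), levels that rest on 11 to 176 reads a liver. The groups overlapped for all 4, and the 95% interval for AXIN2, from −0.63 to 0.44, leaves room for a change of either sign.

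Among the periportal genes, HAL (ENSG00000084110.11) encodes histidine ammonia-lyase, the first enzyme of histidine breakdown. It was at 20.2, 15.0, 13.7 and 25.4 TPM with HuR KD and at 4.75, 27.4, 1.21 and 6.67 TPM with LacZ, the lowest of these resting on 23 reads. LacZ replicate 2 was above all HuR KD livers and the other 3 LacZ livers were below all of them. The log2 fold change was 1.39 (standard error 0.64, p = 0.0564 in limma, exact p = 0.143) with all livers and 1.89 (standard error 0.43, p = 0.00252, adjusted p = 0.0926) without the 2.

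SDS, serine dehydratase, which turns serine into pyruvate and ammonia, showed the widest spread of all. In HuR KD livers it was at 3.84, 6.29, 5.46 and 271 TPM and in LacZ livers at 1.80, 421, 2.61 and 2.24 TPM. The values of 271 and 421 TPM came from the 2 livers that stood apart, 1 of each group, on 9019 and 13886 reads. The log2 fold change over all livers, 0.54, had a 95% interval of −3.51 to 4.59 and no call (adjusted p = 0.946 in limma, exact p = 0.543). The other 6 livers, at 11 to 76 reads each, gave 5.20 ± 1.25 TPM with HuR KD against 2.22 ± 0.406 TPM with LacZ (SD, n = 3 each), a log2 fold change of 0.93 (standard error 0.22, p = 0.00303, adjusted p = 0.0971 in limma, exact p = 0.1).

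GLS2, the liver glutaminase that releases ammonia from glutamine, followed the same pattern at lower contrast. It was at 13.3, 7.25, 10.4 and 35.9 TPM with HuR KD and at 2.98, 38.9, 4.05 and 4.89 TPM with LacZ. Again both livers that stood apart were the highest of their groups, and the rest did not overlap, as for 21.3% of all genes without the 2 livers. Over all livers the log2 fold change was 0.85 (p = 0.271 in limma, exact p = 0.371), and without the 2 it was 1.17 (standard error 0.25, p = 0.00163, adjusted p = 0.0730). All 3 periportal genes passed the test without the 2 livers, against 15.7% of all genes. Without LacZ replicate 2 alone HAL (2.05) and GLS2 (1.61) passed and SDS (2.30) did not, against 15.3% of all genes. Since the levels of these genes were themselves extreme in the 2 livers, leaving these out is not independent of the genes.

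**Figure D2:**
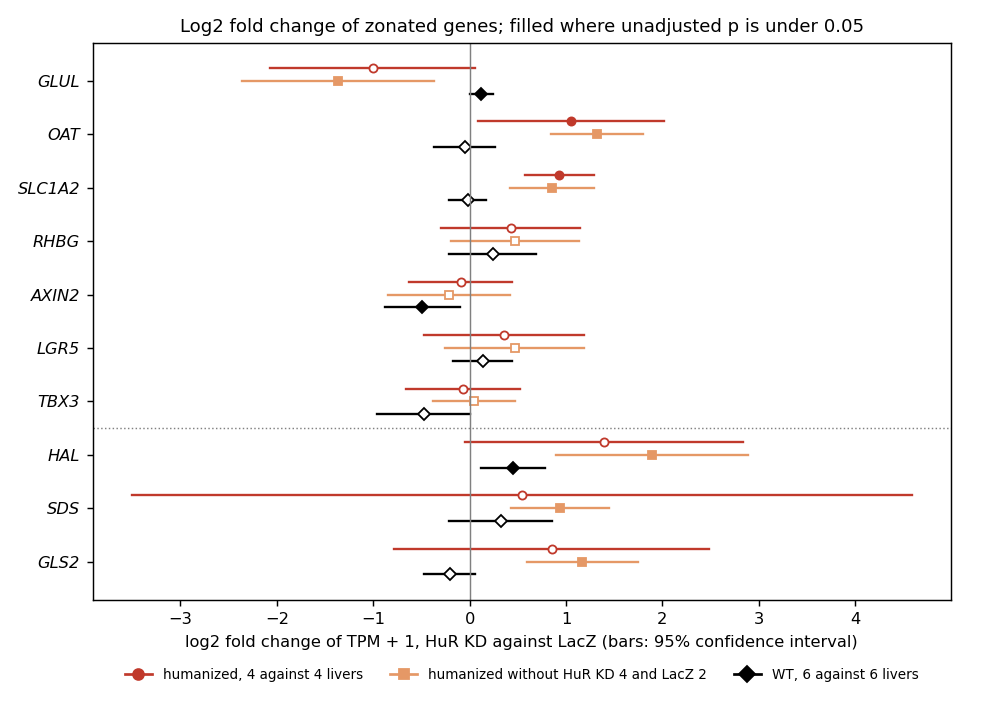
Log2 fold change of each zonated gene, HuR KD against LacZ, with bars for the 95% confidence interval from limma, in humanized livers (circles), in humanized livers without HuR KD replicate 4 and LacZ replicate 2 (squares) and in WT livers (diamonds), filled where the unadjusted p is under 0.05. SLC1A2 and OAT are filled in both humanized fits and open in WT livers, and the interval of SDS runs from −3.51 to 4.59 with all humanized livers.

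In WT mouse livers 3 of the 10 genes were called, GLUL and HAL higher and AXIN2 lower, against 16.0% of 15090 genes, and 0 had an adjusted p under 0.05. None of the 10 separated HuR KD from LacZ livers without overlap, which 2.49% of all genes did. The promoters of these 3 genes are given first, since 2 of them, Glul and Axin2, are textbook targets of β-catenin and moved in opposite directions. Each run holds 250 bases before and 50 after the transcription start, 5′ to 3′, from RefSeq on GRCm38.p6. The set of promoter windows used here held 5 of the 10 genes (Glul, Axin2, Hal, Oat and Slc1a2), and the others were not searched.
Glul, chr1:153899679-153899978, plus strand: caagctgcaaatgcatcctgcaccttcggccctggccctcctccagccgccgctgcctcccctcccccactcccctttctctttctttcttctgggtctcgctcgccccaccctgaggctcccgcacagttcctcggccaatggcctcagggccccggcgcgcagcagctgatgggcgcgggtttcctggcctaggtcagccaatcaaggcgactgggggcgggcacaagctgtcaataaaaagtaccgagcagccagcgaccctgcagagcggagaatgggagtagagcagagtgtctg
Axin2, chr11:108920099-108920398, plus strand: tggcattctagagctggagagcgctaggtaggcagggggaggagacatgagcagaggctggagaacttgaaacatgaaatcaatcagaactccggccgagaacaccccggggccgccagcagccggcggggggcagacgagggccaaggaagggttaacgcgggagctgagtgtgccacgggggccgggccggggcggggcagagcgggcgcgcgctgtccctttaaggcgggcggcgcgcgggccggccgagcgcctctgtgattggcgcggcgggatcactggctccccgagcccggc
Hal, chr10:93488518-93488817, plus strand: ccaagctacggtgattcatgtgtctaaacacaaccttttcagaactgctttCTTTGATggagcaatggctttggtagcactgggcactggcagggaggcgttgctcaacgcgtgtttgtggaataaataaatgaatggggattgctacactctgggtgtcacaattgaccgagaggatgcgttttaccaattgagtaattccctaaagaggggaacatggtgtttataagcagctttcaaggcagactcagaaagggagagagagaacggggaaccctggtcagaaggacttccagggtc
The capitals mark CTTTGAT, one of 2 forms searched of the site that TCF/LEF factors, the DNA-binding partners of β-catenin, can bind. The other form is CTTTGAA, which shares its first 6 letters, and both were searched on both strands. CTTTGAT begins 199 bases before the start of Hal (chr10:93488569-93488575) and lies on the opposite strand 207 bases before the start that RefSeq's window gives for Slc1a2 (chr2:102706231-102706237), in agaagagggacATCAAAGgccccaaatgg, where capitals mark the same letters read from the other strand. That start lies inside the gene as GENCODE M21 annotates it (from 102658659 to 102790784 on the plus strand), so the letters are not upstream of the first annotated start of Slc1a2. It was in 3.73% of 32851 mouse promoters of this length, and either form in 8.65%. Neither form is in these windows of Glul, Axin2 and Oat, which says nothing of sites elsewhere.

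HAL in mouse (Hal, ENSMUSG00000020017.14, chromosome 10 from 93488768 to 93519304 of GRCm38) ran from 206 to 312 TPM with HuR KD (median 240) and from 139 to 247 TPM with LacZ (median 177). Of the 6 HuR KD livers 3 lay above every LacZ liver. The means were 248 ± 39.1 and 184 ± 44.6 TPM (SD, n = 6 each), a log2 fold change of 0.45 (standard error 0.15, p = 0.0122, adjusted p = 0.175 in limma, exact permutation p = 0.0281). The call held in 22 of 22 settings, at 0.37 to 0.54.

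Axin2 (ENSMUSG00000000142.15, chromosome 11 from 108920349 to 108950783) ran from 1.91 to 5.13 TPM with HuR KD (median 3.50) and from 3.95 to 7.39 TPM with LacZ (median 4.82). With HuR KD 3 of 6 livers lay below every LacZ liver. Axin2 fell by 0.49 on the log2 scale (standard error 0.18, p = 0.0171, adjusted p = 0.2 in limma, exact permutation p = 0.0325), and the call held in all 21 settings that kept the gene. The highest LacZ value, in replicate 2, rests on 24 reads.

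Glul (ENSMUSG00000026473.16, chromosome 1 from 153899944 to 153909723) showed the smallest called change, in the tightest groups. It ran from 513 to 614 TPM with HuR KD (median 560) and from 494 to 536 TPM with LacZ (median 520), and 5 of 6 HuR KD livers lay above every LacZ liver. The log2 fold change was 0.12 (standard error 0.06, p = 0.0483, adjusted p = 0.307 in limma, exact permutation p = 0.0216). It was called in 7 of 22 settings, with values of 0.10 to 0.15, and leaving out any 1 liver other than HuR KD replicate 1 ended the call.

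Tbx3 ran from 5.95 to 13.3 TPM with HuR KD (median 6.85) and from 8.13 to 17.4 TPM with LacZ (median 12.0). Its log2 fold change of −0.48 was about as large as that of Axin2 but just missed the threshold (p = 0.0513, adjusted p = 0.316 in limma, exact permutation p = 0.0823), and it was called in 8 of 22 settings. Leaving out HuR KD replicate 1 (−0.59) or 2 (−0.61) or LacZ replicate 4 (−0.57) or 5 (−0.54) was enough for a call. The third Wnt target, Lgr5, was at 1.37 to 2.42 against 0.991 to 2.17 TPM (0.14, adjusted p = 0.699). The pericentral genes of ammonia and glutamate handling other than Glul were not called. Slc1a2 was at 52.4 to 66.5 against 46.7 to 68.3 TPM (log2 fold change −0.02, 95% interval −0.22 to 0.17), Oat at 1670 to 2232 against 1341 to 2505 TPM (−0.05, −0.36 to 0.26) and Rhbg at 2.55 to 6.79 against 1.75 to 4.202 TPM (0.24, −0.21 to 0.69).

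Of the other periportal genes in WT livers, Sds was at 333 to 920 TPM with HuR KD and 287 to 544 TPM with LacZ (0.32, exact p = 0.29), and Gls2 at 188 to 306 against 220 to 300.5 TPM (−0.21, exact p = 0.139). The 306 TPM of Gls2 and the 920 TPM of Sds both came from HuR KD replicate 6. Among the HuR KD livers, replicate 6 also had the highest Rhbg, Hal, Oat and Slc1a2, the lowest Axin2, Tbx3 and Lgr5, and the fewest reads, 12960373. Without replicate 6 Sds was at 0.12 and Gls2 was called lower (−0.31, adjusted p = 0.0735 in limma), against 18.9% of all genes called. The other 5 HuR KD livers lay below every LacZ liver for Gls2, and the share of all genes that do so is not given here. Gls2 was called in 2 of 22 settings. Since Gls2 was itself extreme in replicate 6, leaving this liver out is not independent of the gene. Of 6 Kupffer cell markers 4 were called in WT livers, all lower, against 16.0% of all genes, with a summed level of 276 to 480 TPM against 396 to 538 TPM with LacZ, while 0 of 8 hepatocyte markers were called in limma. Endothelial markers summed to 142 to 178 against 139 to 177 TPM, stellate cell markers to 43.7 to 52.9 against 42.6 to 58.4 TPM, cholangiocyte markers to 31.9 to 44.9 against 25.6 to 48.4 TPM and lymphocyte markers to 5.80 to 12.9 against 8.24 to 16.2 TPM. The part of cell composition in the values of the zonated genes was not tested.

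**Figure D3:**
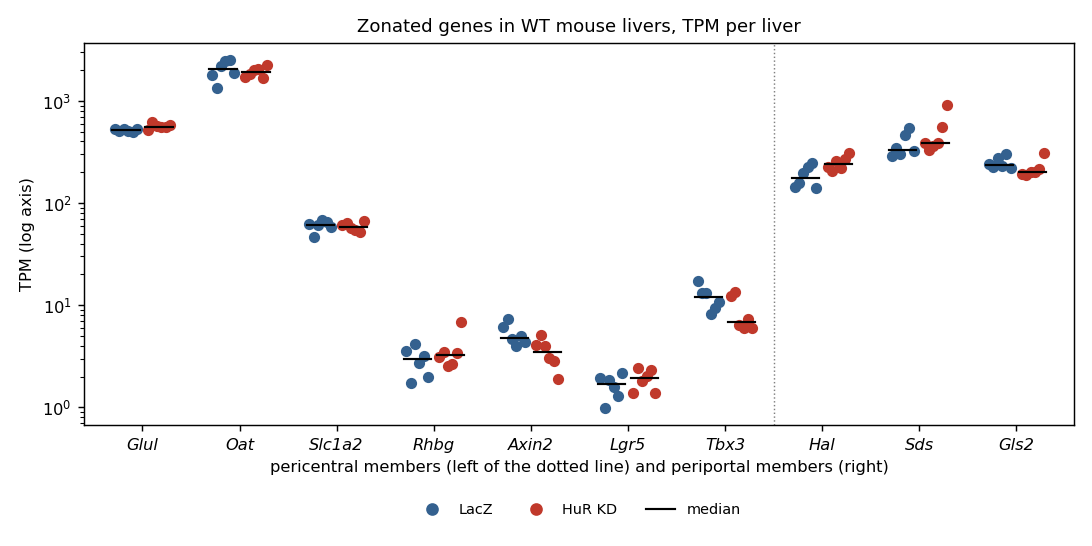
TPM of the 10 zonated genes in each WT mouse liver on a log axis, LacZ in blue and HuR KD in red, with a black line at the median of each group. Hal and Glul sit higher and Axin2 lower with HuR KD, and the groups of all 10 genes overlap.

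Whether the response differed between human and mouse genes was tested as an interaction in a joint limma fit over 8202 pairs of genes with the same symbol. In this fit 3 of the 10 genes passed an unadjusted p of 0.05, SLC1A2, OAT and GLUL, against 19.7% of all pairs (456 higher and 1162 lower in humanized livers, or 754 and 935 with median-of-ratios factors). Humanized livers vary more than WT livers, and in simulated data the shared estimate of spread called 7.64% of unchanged pairs, whereas an estimate kept separate per species called 5.54%. With separate spread, a fit added after seeing the data, the same 3 genes passed against 15.6% of pairs. SLC1A2 differed by 0.95 (standard error 0.17, adjusted p = 0.00242, and 0.0154 with separate spread), from a log2 fold change of 0.93 in humanized and −0.02 in WT livers. OAT differed by 1.10 (adjusted p = 0.122, and 0.214 with separate spread), and GLUL by −1.13 (adjusted p = 0.115, and 0.239 with separate spread), from −1.01 in humanized and 0.12 in WT livers. All 3 passed the unadjusted threshold in each of 29 settings.

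Without the 2 humanized livers that stood apart, 5 of the 10 genes passed, against 26.0% of pairs with shared and 19.9% with separate spread. GLS2 joined them at 1.38 and HAL at 1.44, with adjusted p-values of 0.00383 and 0.0361 under separate spread (0.00104 and 0.0185 under shared spread). With all livers neither passed in the joint limma fit (GLS2 1.06, adjusted p = 0.384, and HAL 0.94, adjusted p = 0.392). Both genes were highest of their groups in the 2 livers, so leaving these out is not independent of the genes. Leaving out humanized LacZ replicate 2 alone also gave a count of 5, against 24.8% of pairs. The differences of RHBG (0.19), AXIN2 (0.40), LGR5 (0.23), TBX3 (0.41) and SDS (0.22) did not pass in the fit of all livers, and the interval for AXIN2, −0.18 to 0.97, does not show that human and mouse genes act alike.

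Other pericentral genes were read from a list of 14, none of them among the 10, and as before a gene was called at an unadjusted p under 0.05, with the adjusted p from limma given beside it. The shares of all genes called, to read the list counts against, were 11.5% in humanized livers, 15.7% without the 2 livers and 16.0% in WT livers. In humanized livers 13 were tested and 4 called, 3 higher and 1 lower, with a median log2 fold change of 0.02 against −0.05 over all genes. NR1I3, the nuclear receptor CAR that responds to foreign compounds, was at 26.0 ± 1.78 against 16.7 ± 2.95 TPM (SD, n = 4 each, log2 fold change 0.62, adjusted p = 0.139), and the drug-metabolizing enzymes CYP1A2 (0.69, adjusted p = 0.251) and CYP2E1 (0.51, adjusted p = 0.415) were higher too. ALDH1A1, which oxidizes retinal, fell by 0.82 (adjusted p = 0.143). Without the 2 livers 7 of 14 were called, 4 higher and 3 lower, against 15.7% of all genes. In WT livers 4 of 14 were called, against 16.0% of all genes, all lower, among them Nr1i3 (−0.63, adjusted p = 0.0454), Cyp2e1 (−0.36, adjusted p = 0.0830) and Lect2 (−0.47, adjusted p = 0.0932), with a median of −0.21 against 0.03 over all genes. NR1I3 and CYP2E1 thus moved opposite ways in the 2 sets, with interactions of 1.25 (adjusted p = 0.00114, and 0.00218 with separate spread) and 0.87 (adjusted p = 0.0179, and 0.0683 with separate spread).

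The list of 17 other periportal genes holds enzymes of the urea cycle, gluconeogenesis and amino acid breakdown. In humanized livers 0 of 17 were called in limma (median 0.15), against 11.5% of all genes, and 3 of 17 without the 2 livers, against 15.7%, 2 higher and 1 lower. In WT livers 8 of 17 were called, against 16.0% of all genes, 7 higher and 1, Ctsc, lower (−0.37), with a median of 0.25. The gluconeogenic enzymes G6pc, at 549 ± 175 against 303 ± 58.0 TPM (SD, n = 6 each, log2 fold change 0.79, adjusted p = 0.120), and Pck1, at 3200 ± 368 against 2610.0 ± 199.7 TPM (0.29, adjusted p = 0.134), were among them, as was Hsd17b13 (0.38, adjusted p = 0.114), a lipid droplet protein. Of 12 genes of serine, glycine and histidine breakdown 6 were called in WT livers, against 16.0% of all genes, all higher, with a median of 0.20. In humanized livers 1 of 10 tested was called, a share near the 11.5% of all genes, with a median of 0.34, and without the 2 livers 4 of 10, against 15.7%, all higher. GLDC, the glycine-cleaving subunit of the glycine cleavage system, was called in both, at 0.59 in humanized (adjusted p = 0.361) and 0.60 in WT livers (adjusted p = 0.0433), with 13 of 18 humanized and 22 of 22 WT settings calling it. Shmt2 (0.32, adjusted p = 0.0834) and Agxt (0.71, adjusted p = 0.108), which also handle serine and glycine, rose in WT livers, and the list shares Sdsl, Ftcd, Amdhd1 and Uroc1 with the periportal list.

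Genes of glutamine, glutamate and ornithine handling gave 0 calls in limma among 19 tested in humanized livers (median −0.14), against 11.5% of all genes. Leaving out the 2 livers gave 5 calls of 19, against 15.7%, and in WT livers 5 of 21 (median 0.06), against 16.0%. Slc38a4, an amino acid transporter, was the strongest, at 738 ± 49.5 against 1057 ± 96.9 TPM (SD, n = 6 each, log2 fold change −0.51, adjusted p = 0.00928 in limma), with an interaction of 0.93 (adjusted p = 0.00664, and 0.0372 with separate spread). Gpt2 was lower (−0.34, adjusted p = 0.169) and Got2 higher (0.19, adjusted p = 0.214), both transaminases that hand amino groups to or from glutamate.

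The lists of Wnt pathway genes were read against the same shares, 11.5% of all genes in humanized and 16.0% in WT livers. Of 8 Wnt ligands and R-spondins 2 were tested and 0 called in either set, and the endothelium that makes many of them is of mouse origin in the chimeric livers. Among the receptors FZD4 fell in humanized livers (−0.44, adjusted p = 0.417, 1 of 5 tested) and Lgr4 rose in WT livers (0.23, adjusted p = 0.148, 1 of 9 tested). Of the inhibitors, Notum, an enzyme that inactivates Wnt ligands, fell in WT livers (−0.27, adjusted p = 0.303), where 4 were tested, and 0 of 4 were called in humanized livers. The destruction complex with β-catenin gave 1 call of 6 in humanized livers, GSK3A (0.56, adjusted p = 0.423), and 0 of 6 in WT livers, and the nuclear effectors 0 of 4 and 1 of 6, Tcf7l1 (0.28, adjusted p = 0.225). CCND1, a cell cycle gene that Wnt signals can raise, was higher in humanized (0.58, adjusted p = 0.327) and lower in WT livers (−0.43, adjusted p = 0.143), with an interaction of 1.01 (adjusted p = 0.0149, and 0.0339 with separate spread), and Myc was higher in WT livers (0.41, adjusted p = 0.276). Of these calls FZD4 held in 5 of 18, GSK3A in 9 of 17, Notum in 8 of 22 and Myc in 14 of 22 settings. With the 2 livers left out GSK3A was not called (0.66), FZD4 (−0.60) and CCND1 (0.43) were, and MYC was called lower (−0.94). None of these Wnt genes had an adjusted p under 0.05 in either set.

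**Figure D4:**
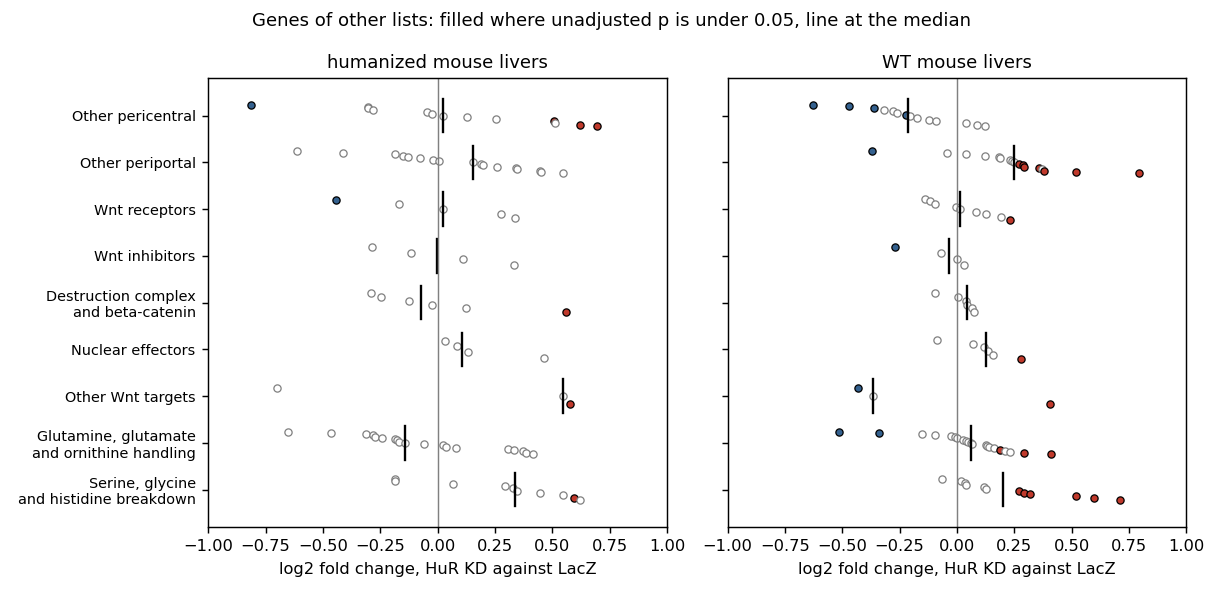
Log2 fold change, HuR KD against LacZ, of each tested gene of 9 lists in humanized (left) and WT (right) mouse livers, with a black line at the list's median, filled red or blue where the unadjusted p is under 0.05 and open otherwise. In WT livers the other pericentral genes have a median of −0.21 and the other periportal genes one of 0.25, and in humanized livers the medians are 0.02 and 0.15.

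The genes whose levels ran most like those of GLUL, SLC1A2 and HAL across the livers of a set were found by the mean absolute difference of centred log2(TPM + 1) over genes with a mean of at least 5 TPM. For HAL in humanized livers the closest of 6446 genes was OAT, at a mean difference of 0.29 over 8 livers, against a mean deviation of 1.01 of HAL from its own mean, followed by TEF (0.50) and SLC2A9 (0.53). HAL and OAT were both highest of their groups in the 2 livers that stood apart, and closeness was not computed without these. For GLUL the closest genes were EPCAM (0.24), TGFBI (0.28) and RHOD (0.28), and for SLC1A2 SIRT5 (0.18) and VPS37D (0.19) were among the 3 closest. In WT livers, over 12 livers and 9553 genes, they were Ncoa3 (0.041), Pknox1 (0.047) and a gene listed as 9-Sep (0.049) for Glul, Snx9 (0.051), Zswim7 (0.059) and Dhtkd1 (0.066) for Slc1a2, and Prox1os (0.096), Ppif (0.11) and Pfkfb2 (0.11) for Hal. None of these genes was named in both sets for the same gene.

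Since HuR binds AU-rich RNA, the 3′ UTRs of the 10 mouse genes were searched for TATTTAT on the sense strand (1 transcript a gene, with the longest coding sequence, from GENCODE M21 on GRCm38). The motif was present 11 times, in 6 of the 10 genes, against 27.1% of 10913 genes with a mean of at least 1 TPM and a 3′ UTR of at least 50 bases. Pooled over the 3′ UTRs, the rate was 0.54 per kilobase in the 10 genes, against 0.28 in all those genes. Slc1a2 held 3 in a 3′ UTR of 9250 bases, Axin2, Hal and Lgr5 held 2 each, and Tbx3 and Sds 1 each, while Glul, Oat, Rhbg and Gls2 held 0. The U-rich run TTTTTTT was searched too, with overlapping matches counted. Slc1a2 held 22, Glul and Tbx3 10 each and Axin2 8, while Gls2, Hal, Lgr5, Oat, Rhbg and Sds held 0. The rate of this run over all genes is not given here. The TATTTAT sites in Axin2 and Hal, which moved in opposite directions in WT livers, are shown with 11 bases on each side and the motif in capitals.
Axin2, chr11:108949631-108949637: aaagcctgaacTATTTATtcaaaacatga
Axin2, chr11:108949782-108949788: gtccttactgaTATTTATtgaacagtcga
Hal, chr10:93517211-93517217: atctatctaccTATTTATctgtctgtcac
Hal, chr10:93517324-93517330: tatctacctacTATTTATctgtcacatac
These coordinates are those of the motif, on the plus strand. Of the 6 genes that hold TATTTAT 2, Axin2 and Hal, were called in WT livers. Of the 4 that do not, 1 was called, Glul, and 16.0% of all genes were. Whether the motif bears on the calls was not tested. A match is a description of the letters and not of binding, and human 3′ UTRs were not analysed here.

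**Figure D5:**
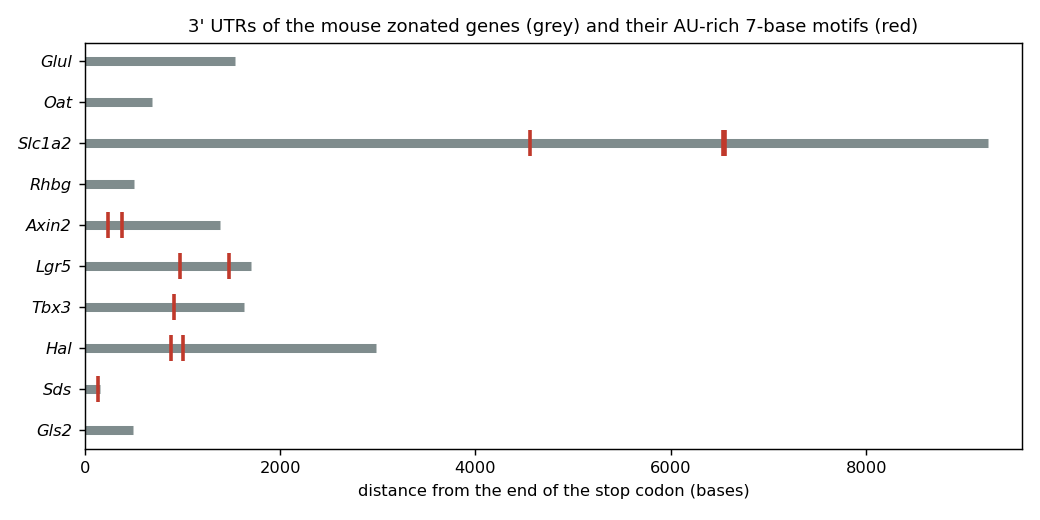
Length of the 3′ UTR of each mouse zonated gene (grey bars, in bases from the end of the stop codon) and the place of each AU-rich 7-base motif (red ticks). Slc1a2 has the longest at 9250 bases with 3 motifs, 2 of them too close to be told apart here, and Glul, Oat, Rhbg and Gls2 have 0.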

How the data were processed

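Livers were sequenced from total RNA (paired-end). Per the study's methods, the authors used cutadapt for trimming, HISAT2 for alignment (GENCODE M23 for WT, a joint human and mouse index for humanized livers) and featureCounts for gene counts. The submitters' processing notes name the builds mm10 and GRCh38. The authors deposited TPM per gene and liver in 1 table per set. How TPM were computed, and the gene lengths, are not given in the sources used here. Reads mapped to host mouse genes in humanized livers are not in the human values, and reads shared by both species could have been lost or misplaced.

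Groups followed the labels. Reads per liver were recovered from the whole-number steps of the TPM. Each set was fitted apart with limma 3.58.1 (R 4.3.3) on log2(TPM + 1) for genes with a mean of at least 1 TPM, with trend, so fold changes understate those of low genes. Single genes were also tested by exact two-sided permutation of livers. A joint limma fit tested the interaction. In simulated data 91.5% (humanized, 12738 genes) and 98.5% (WT, 15090 genes) of 200 genes shifted by 1.5 on the log2 scale were recovered, and 4.94% and 5.02% of unchanged genes were called. TPM are not counts, so voom on recovered reads was an alternative. The other alternatives were the pseudocount, the filter, 3 rescalings, no trend, a replicate block and single livers left out. Matplotlib 3.10.9 drew the plots.

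The sources used here do not say what the replicate numbers stand for, so livers were not paired by them. The members and gene lists were chosen with earlier results of these data known. All members were named, with the 3 called genes of lowest p in each other list. Any further list genes, such as Ctsc, CYP2E1 and the marker genes, were named after their values were seen. Human promoters, 3′ UTRs and proteins were not analysed here. A few genes that the naming rule or a list would give are not reported here.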

Additional observations from a re-analysis of the deposited data

Results flagged for a closer look

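Each gene was examined in each group of livers for a single liver far from the rest, and 5 of these 40 sets of values held one. The genes were measured in the same livers, so the 40 are not independent. Whether 5 is more than chance would give was not tested. In humanized livers SDS was at 271 TPM in HuR KD replicate 4 (next highest 6.29 TPM) and at 421 TPM in LacZ replicate 2 (next highest 2.61 TPM), and GLS2 was at 38.9 TPM in LacZ replicate 2 (next highest 4.89 TPM). These are the 2 livers that stood apart from the rest over the whole library. In WT livers Rhbg was at 6.79 TPM (next highest 3.48 TPM) and Gls2 at 306 TPM (next highest 215 TPM), both in HuR KD replicate 6.

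For 3 genes the effect of HuR KD differed between humanized and WT livers in the joint limma fit, at an unadjusted p under 0.05: GLUL by −1.13, OAT by 1.10 and SLC1A2 by 0.95 on the log2 scale. SLC1A2 also passed after adjustment over all pairs (adjusted p = 0.00242).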

How the results depend on the processing

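The number of zonated genes called in WT livers ranged from 2 to 4 when 1 liver was left out, against 12.7 to 18.9% of all genes. In other settings it ranged from 2 to 5, with 5 under quantile normalization, against 17.3% of all genes there. In humanized livers it ranged from 1 to 4 when 1 liver was left out, against 8.57 to 15.3% of all genes. The 4 came without LacZ replicate 2, as did the 15.3%. It was 6 without the 2 livers that stood apart, against 15.7%, also with the protein-coding total as the scale, against 17.4%. The count of interactions ranged from 3 to 5 when 1 liver was left out, against 17.4 to 24.8% of pairs. The 5 came without humanized LacZ replicate 2, as did the 24.8%. It was 5 without the 2 livers, against 26.0%, also with separate spread per species, against 19.9%.

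Values near 0 changed sign. With single livers left out, Oat in WT livers ran from −0.16 to 0.018, Slc1a2 in WT livers from −0.092 to 0.016, AXIN2 in humanized livers from −0.26 to 0.012, TBX3 from −0.22 to 0.17 and SDS from −0.83 to 2.30, and the interactions of RHBG from −0.089 to 0.41, of LGR5 from −0.045 to 0.52 and of SDS from −1.15 to 1.98. AXIN2 was at 0.11 with voom. TBX3 in humanized livers was at 0.0070 with median-of-ratios factors, 0.0089 with the protein-coding total, 0.04 without the 2 livers and 0.17 with both. The cause was not tested.

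With the replicate number as a block, 3 genes were called in each set. These were AXIN2, HAL and TBX3 in WT livers, against 14.9% of all genes. In humanized livers they were OAT, SLC1A2 and HAL, against 10.999% of all genes. In the same setting 4 interactions passed, against 19.4% of pairs. With each gene's group mean taken off, same-numbered livers correlated at −0.14 to 0.21 in WT and −0.25 to 0.14 in humanized livers. Whether the numbers pair livers cannot be told from these values. Low genes are limited by depth: Rhbg rested on 2 reads and Lgr5 on 6 in WT LacZ replicate 2.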
